A study of Rhodotorula toruloides with 36 samples.

Results

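The genes described here are the giant genes of Rhodotorula toruloides strain IFO0880, those with the longest coding sequences and comparatively few exons. They were taken from the gene catalogue deposited with the series as every mRNA whose coding segments sum to at least 5000 bp and which has 2 to 19 exons. The rule found 98 of the 8490 genes in the catalogue, which is 1.15% of the genes and 4.92% of the annotated coding bases. It used only the annotation, so no expression value entered it, though it was set with earlier results of these data known. All 98 had enough counts to be tested for changes, among 8314 genes tested in all.

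Rhodotorula toruloides is a red basidiomycete yeast known for storing lipid when nitrogen runs short while carbon remains. Its genes, like those of other basidiomycetes, are usually broken by many short introns. In fungi, very long coding sequences typically belong to large multidomain proteins such as cytoskeletal motors, kinases of the TOR family and fatty acid or polyketide synthases. Genes of the deposited catalogue carry only an mRNA number, a protein number and coordinates. No source used here links the numbers to names or functions, so none of the giant genes is assigned to such a protein. A longer transcript yields more sequenced fragments per molecule, so levels are compared between genes per kilobase only.

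Messenger RNA was sequenced from cultures of strain IFO0880, as the source name and the growth protocol have it, in 12 groups of 3 libraries, 36 in all, which differ in nitrogen, acetate and time. The groups were low nitrogen with acetate, low nitrogen without acetate, high nitrogen with acetate and high nitrogen without acetate, each sampled at 48, 64 and 88 h. Low-nitrogen medium held ammonium sulfate at 0.1 g/L and, by the design text, yeast extract at 0.75 g/L. High-nitrogen medium held ammonium sulfate at 5 g/L by the protocol and at 10 g/L by the design text, which names no yeast extract for it, so nitrogen and yeast extract cannot be told apart. Acetate was present at 2 g/L or absent. The title of the series concerns xylose, and which carbon source the sampled flasks held is not stated. The labels call the libraries biological replicates, and their titles carry the prefix Rt88, which no label explains. Inocula came from 3 colonies, each divided over 4 flasks. It is not stated what the replicate numbers stand for or whether a flask was sampled more than once, so p-values measure only the spread between these samples.

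Library totals lay between 10173719 and 63311529 counts, and a level of 3 counts corresponded to between 0.0497 and 0.410 CPM, which are counts per 1000000 of the library total scaled by edgeR's TMM factor. The lowest count of any giant gene in any library was 66, and the median over the giant genes of their lowest count was 1304, so depth limited few of the values below. All replicate pairs differed beyond sampling noise, since their chi-squares per degree of freedom were 8.14 to 154. Across genes, which are not independent replicates, Pearson's r of log2 CPM lay between 0.977 and 0.998 within groups. A library stood apart from both its replicates in 4 groups. These were replicate 3 of high nitrogen with acetate at 48 h, replicate 1 of low nitrogen without acetate at 64 h, and replicate 2 of high nitrogen without acetate at both 64 h and 88 h. All were kept, and the counts of giant genes that use them are also given without all 4. For the genes named by rule, the values recomputed without the 4 kept their direction and their call, and several of them are given beside the result.

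The giant genes had coding lengths between 5043 and 16068 bp, with a median of 5918 bp, against 1218 bp over all genes. Their exon number ran from 4 to 19 with a median of 10, against 5 over all genes. Per kilobase of coding sequence the median was 1.65 exons in the giant genes and 4.36 over all genes, so the label of few introns held for their density and not for their number. Their introns were short, with a median of 59 bp over genes' own medians, against 63 bp over all genes with an intron. The median of their longest exon was 2255 bp, against 571 bp over all genes. No gene with a coding length of 5000 bp or more had fewer than 4 exons, and 3 giant genes had 4: mRNA_2466, mRNA_4096 and mRNA_5628. A further 16 genes as long had 20 exons or more and were left out by the rule.

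Most giant genes lay close to the length limit. Of the 98, 54 had a coding length under 6000 bp and 4 had 10000 bp or more. The longest was mRNA_6607 (protein 14975), on the minus strand of scaffold 6 at 1218150 to 1235476 of the version 4 assembly of strain IFO0880, with 17 exons, a coding length of 16068 bp and 5355 codons before the stop. It was followed by mRNA_120 with 13095 bp on scaffold 1, mRNA_6313 with 11460 bp on scaffold 6 and mRNA_1471 with 11163 bp on scaffold 11. Just inside the limit were mRNA_6562 with 5043 bp, mRNA_4303 with 5046 bp and mRNA_2466 with 5052 bp, whose mean levels were 31.8, 63.4 and 29.3 RPKM. Just outside were mRNA_1574 with 4992 bp, mRNA_5588 with 4989 bp and mRNA_1486 with 4965 bp, at 46.3, 72.2 and 11.3 RPKM. RPKM here is the TMM-scaled CPM per kilobase of summed exon length.

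The giant genes were spread over 18 of the 21 scaffolds that carry a gene, 41 on the plus and 57 on the minus strand, and no 2 of them were direct neighbours. No untranslated region was annotated for 42 of them (42.9%), against 33.8% of all genes, so for these the exon length is the coding length. The exons of 18 overlapped those of another gene, by at most 281 bp, or 4.81% of the exon length. Since the strand setting of the counting is not stated, a small part of the reads of those 18 could belong to the neighbour.

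Per kilobase the giant genes were somewhat below the typical gene. Their mean level over the 36 libraries had a median of 22.0 RPKM, against 31.3 RPKM over all genes tested, with an interquartile range of 14.2 to 36.4 RPKM in the giant genes. Because of their length they still took more reads per gene, with a median of 148 CPM against 49.6 CPM. The highest level was that of mRNA_5107 at 214 RPKM, followed by mRNA_271 at 103, mRNA_6209 at 78.2 and mRNA_5230 at 76.3 RPKM. The lowest was that of mRNA_2968 at 2.12 RPKM. No giant gene came near the most abundant genes, of which the highest reached 4494 RPKM.

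Between the 12 conditions the levels of the giant genes moved over a median range of 2.91-fold, from the lowest to the highest group mean, against 3.46-fold over all genes tested. The range was at least 2-fold in 91 of the 98 and at least 4-fold in 28. It was widest for mRNA_409, at 23.5-fold, then for mRNA_271 at 14.9-fold and mRNA_7345 at 12.2-fold. The narrowest was that of mRNA_8419, at 1.57-fold, whose group means lay between 138 and 217 CPM. Each giant gene was called in a median of 10 of the 16 pairwise comparisons, against 11 for all genes tested, and 0 giant genes were called in none of them, against 0.120% of all genes tested. A gene is called where the adjusted p of edgeR's quasi-likelihood F-test, adjusted by Benjamini-Hochberg over all genes tested in that comparison, is below 0.05.

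With TMM scaling the highest levels fell largely in 1 condition. In low nitrogen with acetate at 64 h 50 of the 98 giant genes had their highest group mean (51.0%), against 10.1% of all genes tested. A further 13 had it in high nitrogen without acetate at 64 h (13.3%, against 6.05% of all genes). In high nitrogen with acetate at 64 h 11 had it (11.2%, against 6.07%). The lowest group mean lay in low nitrogen without acetate at 88 h for 36 giant genes (36.7%), against 17.4% of all genes, and in high nitrogen with acetate at 48 h for 25 (25.5%), against 11.5%. Which condition was highest depended on the scaling. With library totals alone 9 giant genes had their highest group mean in low nitrogen with acetate at 64 h, against 3.33% of all genes tested, and 44 had it in high nitrogen without acetate at 64 h, against 8.76%. The TMM factors were 0.719 to 0.786 in the first of these groups and 1.07 to 1.24 in the second. The lowest group means lay where they did with TMM, with 41 in low nitrogen without acetate at 88 h, against 18.4% of all genes, and 29 in high nitrogen with acetate at 48 h, against 10.0%. In low nitrogen without acetate at 88 h 9 giant genes had their highest TMM-scaled group mean (9.18%), fewer than the 15.8% of all genes tested.

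**Figure D1:**
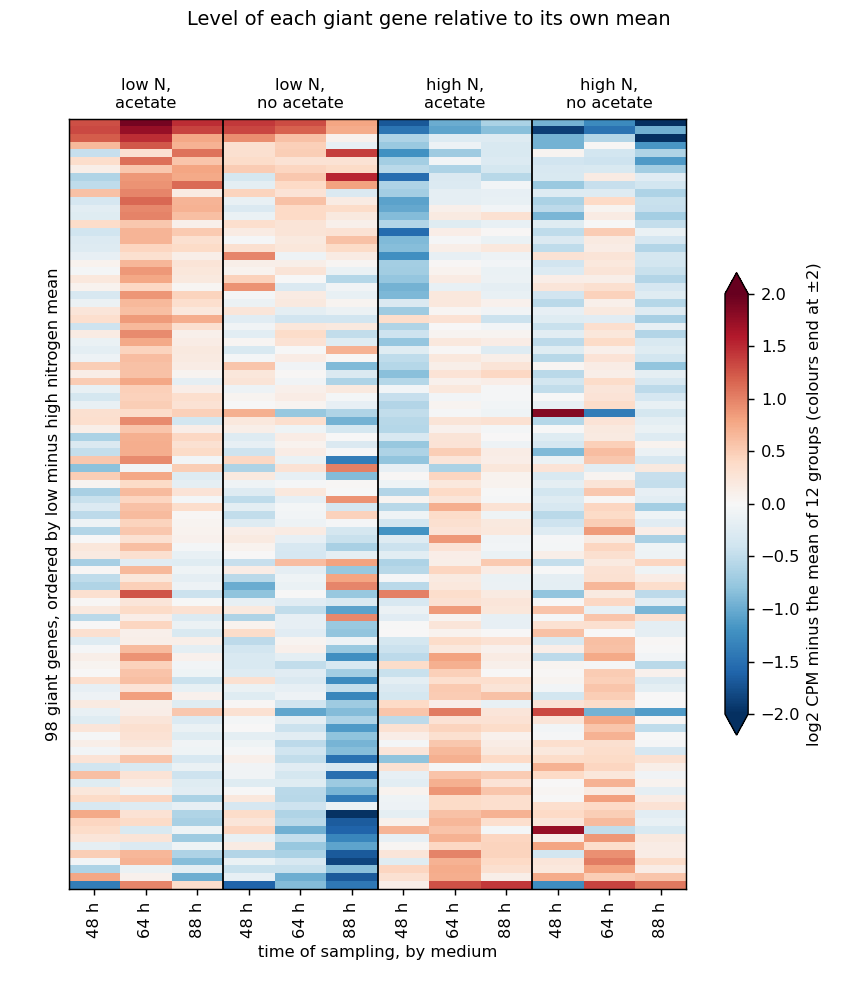
Level of each of the 98 giant genes (rows) in each of the 12 groups (columns, 3 libraries each), as log2 CPM minus the gene's own mean over the 12 groups, ordered by the difference between low and high nitrogen. The column of low nitrogen with acetate at 64 h, where 50 genes have their highest TMM-scaled group mean (9 with library totals alone), is red in most rows, the columns with the most lowest means are mixed, and a few genes at the top and bottom differ mainly by nitrogen.

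Acetate in low nitrogen was the comparison in which the giant genes moved most in one direction. At 64 h 87 of 98 were higher with acetate, against 23.0% of all genes tested, and 1 was lower, against 18.8%. Their median log2 fold change was 0.59, against 0.00 over all genes tested. At 88 h 68 were higher, against 25.2% of all genes, and 10 lower, against 22.3%, with a median of 0.46 against 0.01. At 48 h 13 were higher, against 25.1% of all genes, and 17 lower, against 26.0%, with a median of 0.00 against -0.01. At 64 h the changes were small in most genes, and 11 of the 98 were called and at least 2-fold higher, against 3.67% of all genes tested. At 88 h 15 were, against 4.73%. Leaving out the library that stood apart in this medium, together with the other 3, gave 91 higher and 2 lower at 64 h. Without replicate 3 of the acetate group at 64 h 3 were lower. With library totals alone as the scaling 69 were higher and 3 lower at 64 h, and 69 and 12 at 88 h. At 48 h that scaling gave 24 higher and 12 lower, and the number higher was 5, 8 and 7 without replicate 1 or 2 of low nitrogen without acetate and without replicate 2 of the acetate group at 48 h.

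**Figure D2:**
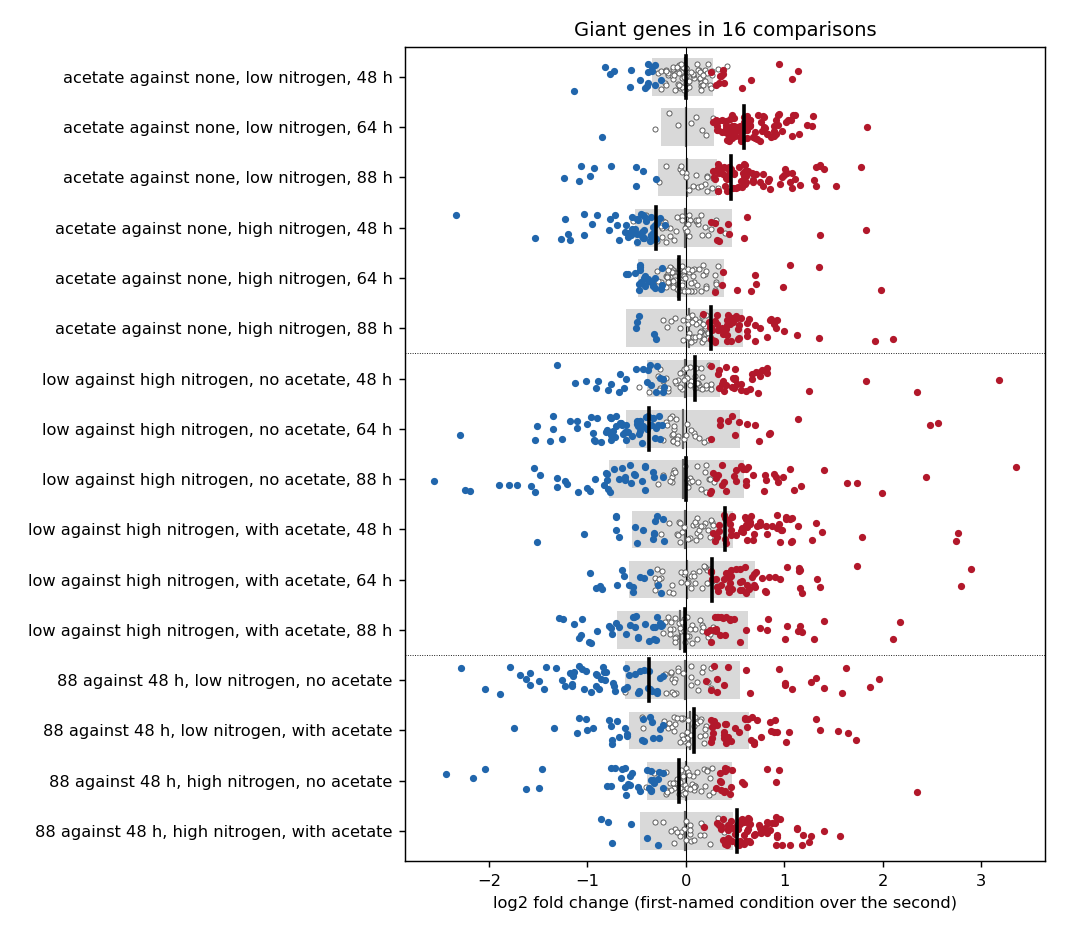
Log2 fold change of each giant gene (points, 98 per row) in the 16 pairwise comparisons, with the first-named condition over the second. Red points are called higher and blue points called lower (adjusted p below 0.05, edgeR), open points are not called, black bars are the giant genes' medians and grey boxes the interquartile range of all 8314 genes tested. Nearly all points lie to the right for acetate in low nitrogen at 64 h, with a median of 0.59.

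Of the giant genes higher at 64 h, 66 were also higher at 88 h, against 13.5% of all genes tested called higher at both times. A single giant gene, mRNA_5230, was lower at both times, against 8.44% of all genes. The 2 comparisons share no library. The 9 higher at all 3 times compare with 5.75% of all genes, and 0 were lower at all 3 times, against 3.81%.

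The largest rise was that of mRNA_3473 (protein 11841, scaffold 18, 186734 to 196456, plus strand, 11 exons, coding length 8697 bp). At 64 h it had 868, 1095 and 942 CPM in low nitrogen with acetate, against 269, 282 and 257 CPM without. Its log2 fold change was 1.85 (SE 0.21, adjusted p = 5.02e-08, edgeR), where the SE is the absolute log2 fold change divided by the square root of F. The groups did not overlap, and the lowest acetate library was well above the highest library without it. Genes named by rule for a fold change had to have groups that do not overlap. For them, here and below, the lack of overlap is thus no added evidence. At 88 h it had 634, 637 and 602 CPM with acetate, against 193, 187 and 166 CPM without, a log2 fold change of 1.78 (adjusted p = 5.46e-08, edgeR). At 48 h the groups stood at 189 ± 14.1 and 163 ± 15.3 CPM (mean ± SD, n = 3 each) and the difference did not pass the test (adjusted p = 0.395, edgeR).

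Next at 64 h came mRNA_822 (protein 9190, scaffold 1, 10 exons), the only giant gene at least 2-fold higher with acetate at all 3 times by its fitted value. It had 301, 305 and 282 CPM with acetate at 48 h, against 135, 135 and 151 CPM without. Its log2 fold changes were 1.08 at 48 h, 1.30 at 64 h and 1.06 at 88 h (adjusted p = 1.04e-05, 1.18e-06 and 1.68e-05, edgeR). Groups overlapped at none of these times. At 48 h mRNA_1553 rose most (protein 9921, scaffold 11, 18 exons). It had 332, 346 and 427 CPM with acetate against 166, 169 and 167 CPM without, a log2 fold change of 1.14 with an SE of 0.17 (adjusted p = 2.61e-06, edgeR). At 88 h the second-largest rise was that of mRNA_8422 (protein 16790, scaffold 9, 16 exons), at 107 ± 15.3 CPM with acetate and 37.1 ± 3.16 CPM without (log2 fold change 1.53, adjusted p = 1.84e-10, edgeR).

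A few giant genes went the other way. The 1 gene lower with acetate at 64 h was mRNA_5230 (protein 13598, scaffold 4, 12 exons), which had 369, 357 and 357 CPM with acetate, against 636, 676 and 640 CPM without. The groups were far apart for their spread, with a log2 fold change of -0.85 with an SE of 0.12 (adjusted p = 2.22e-06, edgeR). It was also lower at 88 h, at 357 ± 15.6 CPM with acetate against 745 ± 58.8 CPM without (log2 fold change -1.06, adjusted p = 3.33e-08, edgeR), and at 48 h the difference of -0.20 did not pass (adjusted p = 0.173, edgeR). At 88 h the lowest fold changes were those of mRNA_2158, at 75.1 ± 1.87 CPM with acetate against 176 ± 2.97 CPM without (log2 fold change -1.23, adjusted p = 9.06e-10, edgeR), and mRNA_8112, at 72.7 ± 2.75 against 154 ± 17.6 CPM (log2 fold change -1.09, adjusted p = 5.86e-08, edgeR). At 48 h they were those of mRNA_1813, at 148 ± 8.04 CPM with acetate against 323 ± 3.34 CPM without (log2 fold change -1.13, adjusted p = 1.66e-12, edgeR), and mRNA_4919, at 242 ± 19.5 against 427 ± 15.9 CPM (log2 fold change -0.82, adjusted p = 2.88e-07, edgeR). Both of these were higher with acetate at 64 h, by 0.41 and 0.70 on the log2 scale (adjusted p = 0.000143 and 6.31e-06, edgeR).

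The direction at 64 and 88 h was graded with coding length over the whole catalogue. In low nitrogen at 64 h the median log2 fold change with acetate was -0.11 for the 822 tested genes under 500 bp, 0.12 for the 710 of 2000 bp or more but under 2500 bp, 0.32 for the 458 from 3000 bp to under 4000 bp and 0.43 for the 186 from 4000 bp to under 5000 bp, and 0.59 for the giant genes. At 88 h the same classes gave -0.07, 0.11, 0.22 and 0.30, and the giant genes 0.46. At 48 h no such grade was seen, with medians between -0.07 and 0.07 in all length classes. The 16 genes as long but with 20 exons or more, which the rule left out, had a median of 0.47 at 64 h with 13 higher and 0 lower, and 0.62 at 88 h with 12 higher and 0 lower. Genes as long with more exons thus had the same direction, and the giant genes stood at the end of the grade. The part of coding length in the result was not tested.

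**Figure D3:**
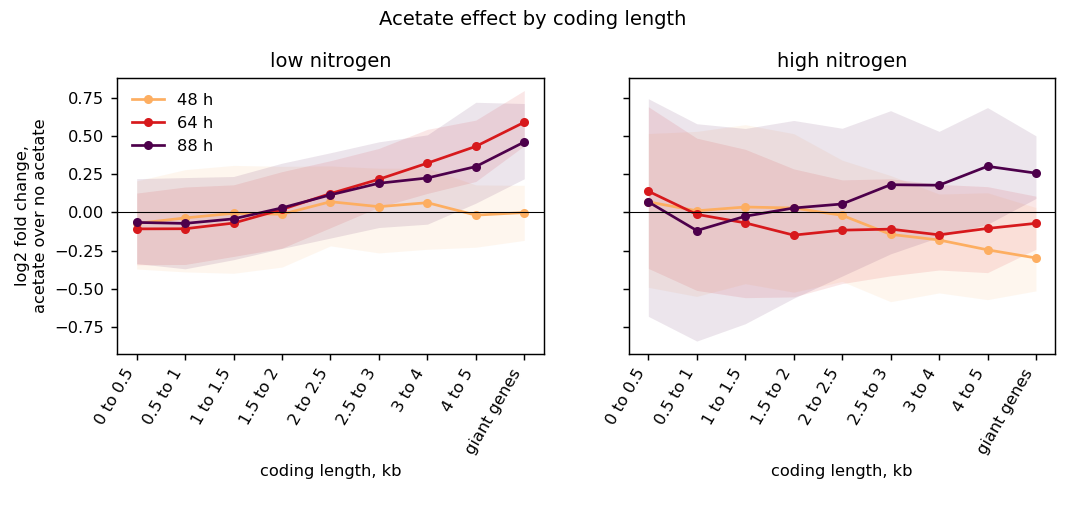
Median log2 fold change of acetate over no acetate for genes in classes of coding length (points) at 48, 64 and 88 h in low nitrogen (left) and high nitrogen (right), with the interquartile range of each class shaded and the giant genes as the last class. In low nitrogen the medians climb with length at 64 and 88 h, to 0.59 and 0.46 in the giant genes, and stay near 0 at 48 h.

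Within the giant genes the change at 64 h differed little by length, exon number or annotation. There the 54 with coding lengths under 6000 bp had a median log2 fold change of 0.56 and the 44 longer ones 0.59. The 44 with 2 to 9 exons had 0.58 and the 54 with 10 to 19 exons 0.59, and the 42 without an annotated untranslated region had 0.62, against 0.57 in the 56 with one. At 88 h the median was 0.35 with 2 to 9 exons and 0.57 with 10 to 19, a difference that was not tested, while by length it was 0.47 under 6000 bp and 0.43 in the longer ones. Across the 98 giant genes, which are not independent replicates, Pearson's r between the log2 fold change and log2 coding length was 0.05 for 64 h and -0.04 for 88 h.

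In high nitrogen acetate had another pattern over time. At 48 h 11 giant genes were higher with acetate, against 34.3% of all genes tested, and 50 were lower, against 34.6%, with a median log2 fold change of -0.30 against -0.01 over all genes. At 64 h 11 were higher, against 30.4%, and 23 lower, against 36.5%, with a median of -0.07 both for them and over all genes. At 88 h 50 were higher, against 38.8%, and 5 lower, against 36.8%, with a median of 0.26 against 0.04. Long genes outside the set moved in the same direction at 48 and 88 h. At 48 h the median was -0.18 for genes from 3000 bp to under 4000 bp and -0.25 from 4000 bp to under 5000 bp. At 88 h these classes had 0.18 and 0.30, the latter above the giant genes. The 16 genes as long with 20 exons or more had -0.24 at 48 h, with 3 higher and 7 lower. At 88 h they had 0.38, with 13 higher and 0 lower. The share of giant genes called at 64 h, 34 of 98, was below that of all genes tested, which was 66.9%.

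Each of these comparisons uses a library that stood apart. Without the 4 such libraries 15 were higher and 61 lower at 48 h. At 64 h these counts were 15 and 25, and for 88 h they were 38 and 13. The median at 88 h was then 0.11, against 0.01 over all genes, and it was also 0.11 without replicate 2 of high nitrogen without acetate at 88 h alone. The number lower at 88 h was 10 without replicate 2 of high nitrogen without acetate at 88 h alone and 3 without replicate 1. With library totals alone as the scaling the counts were 6 and 63 at 48 h and 8 and 58 at 64 h, and at 88 h the balance turned to 12 higher and 40 lower. That scaling moved the median of all genes by over 0.1 on the log2 scale in 12 of the 16 pairwise comparisons, by between -0.54 and 0.19, and so moved the giant genes with all others. At 88 h in high nitrogen it put the median of all genes at -0.43 and that of the giant genes at -0.21. The giant genes' median thus stood 0.22 above that of all genes under either scaling with all libraries, and 0.099 above it with TMM without the 4 that stood apart.

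Several giant genes changed strongly in high nitrogen. At 48 h mRNA_1578 fell most (protein 9946, scaffold 11, 640078 to 646560, plus strand, 9 exons). It had 72.4, 74.0 and 83.6 CPM with acetate, against 429, 361 and 368 CPM without. Its log2 fold change was -2.33 (SE 0.15, adjusted p = 2.60e-14, edgeR). At 64 h the same gene was higher with acetate, at 107 ± 17.9 CPM against 41.9 ± 7.65 CPM (log2 fold change 1.35, adjusted p = 4.03e-09, edgeR), so its direction turned between the times while the groups overlapped at neither. The largest rise at 64 h was that of mRNA_2460, at 83.1 ± 4.09 CPM with acetate against 20.9 ± 2.80 CPM without (log2 fold change 1.99, adjusted p = 6.39e-12, edgeR). It had been lower with acetate at 48 h, at 59.4 ± 7.96 against 101 ± 12.3 CPM (log2 fold change -0.77, adjusted p = 3.35e-05, edgeR).

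At 48 h the rises were led by mRNA_1553, which had 516, 501 and 794 CPM with acetate, against 176, 182 and 150 CPM without (log2 fold change 1.83, adjusted p = 1.93e-10, edgeR). Its highest value came from the library that stood apart, and the other 2 were also above all libraries without acetate. Without the libraries that stood apart its log2 fold change was 1.59. The second was mRNA_3473, at 539 ± 113 against 210 ± 34.3 CPM (log2 fold change 1.36, adjusted p = 1.41e-06, edgeR). The second-largest fall was that of mRNA_1813, at 70.1 ± 2.08 against 203 ± 23.5 CPM (log2 fold change -1.53, adjusted p = 4.58e-16, edgeR), a gene that also fell at 48 h in low nitrogen.

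At 88 h the largest rise was that of mRNA_271 (protein 8639, scaffold 1, 9 exons), with 452, 473 and 519 CPM with acetate, against 135, 70.2 and 130 CPM without (log2 fold change 2.10 with SE 0.22 and adjusted p = 8.62e-10, edgeR). The second was that of mRNA_409, at 261 ± 7.82 against 68.8 ± 26.7 CPM (log2 fold change 1.93, adjusted p = 2.70e-06, edgeR). In both genes the lowest value without acetate came from the library that stood apart, and all 3 libraries without acetate were below all 3 with it. Without the libraries that stood apart the log2 fold changes were 1.86 for mRNA_271 and 1.63 for mRNA_409. The falls at 88 h were smaller, -0.50 for mRNA_2158 and -0.49 for mRNA_8112 on the log2 scale (adjusted p = 0.000299 and 0.00105, edgeR).

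At 64 h the lowest fold changes in high nitrogen were those of mRNA_2405, one of the longest giant genes with 9762 bp, at 359 ± 16.4 CPM with acetate against 546 ± 100 CPM without (log2 fold change -0.60, adjusted p = 0.000183, edgeR), and mRNA_7699, at 174 ± 3.93 against 262 ± 33.9 CPM (log2 fold change -0.59, adjusted p = 4.67e-05, edgeR). The groups did not overlap in either gene, as the naming rule required.

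Whether the acetate effect differed between the media was tested as an interaction, the effect in low minus that in high nitrogen. At 64 h 74 giant genes had a higher effect in low nitrogen, against 31.9% of all genes tested, and 2 a lower one, against 24.1%, with a median log2 difference of 0.69 against 0.10 over all genes. At 48 h 36 had a higher and 5 a lower effect in low nitrogen, against 28.3% and 28.4%, with a median of 0.26 against 0.01. At 88 h the counts were 29 and 21, against 32.8% and 30.2%, with a median of 0.09 against 0.04. Without the 4 libraries that stood apart the counts for 64 h were 84 and 3, those for 48 h 51 and 12, and those for 88 h 47 and 18. Without replicate 2 of high nitrogen without acetate at 88 h alone 44 had a higher effect at 88 h. With library totals alone those for 64 h were 81 and 2, those for 48 h 58 and 1, and those for 88 h 68 and 4. Of the giant genes 17 were higher with acetate at 64 h in low and lower in high nitrogen, against 5.28% of all genes tested, and 0 had the opposite pair of directions, against 4.17%. At 88 h 37 were higher with acetate in both media, against 13.7%, and 4 were lower in both, against 12.0%. At 48 h 13 were lower in both, against 14.5%, and 5 were higher in both, against 12.2%. Long genes outside the set had a like interaction. At 64 h its median was 0.45 for genes from 3000 bp to under 4000 bp and 0.52 from 4000 bp to under 5000 bp. At 48 h these classes had 0.22 and 0.25, the latter close to the giant genes. The 16 genes as long with 20 exons or more had 0.42 at 64 h, with 8 higher and 0 lower.

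The gene called higher with acetate in all 6 comparisons was mRNA_7588, with log2 fold changes from 0.31 to 0.94. The 1 gene compares with 1.38% of all genes tested. In high nitrogen 2 giant genes, mRNA_7588 and mRNA_7616, were higher at all 3 times, against 13.5% of all genes, and 2 were lower at all 3, mRNA_6607 and mRNA_8112, against 13.0%. The genes mRNA_7588 and mRNA_7616 were singled out after their values were seen.

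Low nitrogen against high nitrogen split the giant genes, and the split depended on acetate and time. With acetate at 48 h 55 giant genes were higher in low nitrogen, against 34.3% of all genes tested, and 16 lower, against 36.0%, with a median of 0.39 against -0.01. At 64 h 50 were higher, against 39.0%, and 15 lower, against 37.0%, with a median of 0.27 against 0.02. At 88 h 31 were higher, against 36.6%, and 33 lower, against 40.8%, with a median of -0.01. Library totals alone gave 62 and 11 at 48 h, turned the balance at 64 h to 26 and 37, and gave 29 and 35 at 88 h. At 64 h that scaling moved all genes by -0.34, and the giant genes' median stood above that of all genes by 0.25 with TMM and by 0.24 with library totals. At 88 h another reference library for the TMM factors gave 40 and 26. Without the library that stood apart at 48 h, and the other 3, the counts there were 63 and 16. At 48 and 64 h other long genes had smaller medians. The 16 genes as long with 20 exons or more had 0.06 at 48 h, 0.13 at 64 h and 0.12 at 88 h. Genes from 2000 bp to under 5000 bp had 0.13, 0.04 and -0.07.

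Without acetate the balance at 64 h was the other way. At 48 h 34 were higher in low nitrogen, against 29.1% of all genes tested, and 23 lower, against 29.9%, with a median log2 fold change of 0.09. At 64 h 15 were higher, against 35.4%, and 59 lower, against 38.4%, with a median of -0.37 against -0.03 over all genes. At 88 h 35 were higher, against 37.6%, and 40 lower, against 39.9%, with a median of 0.00. With library totals alone the split for 48 h became 28 and 35, that for 64 h 7 and 81, and that for 88 h 15 and 65. The giant genes' median minus that of all genes was -0.34 at 64 h under both scalings, and 0.03 with TMM and 0.04 with library totals at 88 h. Without the libraries that stood apart the counts were 16 and 61 at 64 h and 32 and 48 at 88 h, where the median was then -0.18 against -0.01 over all genes. With all libraries, other long genes also leaned lower at 64 h. The 16 genes as long with 20 exons or more had a median of -0.19, with 3 higher and 6 lower. Genes from 2000 bp to under 5000 bp had -0.27, with 23.6% higher and 51.9% lower.

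A small group of giant genes followed nitrogen in every comparison. In all 6 of them 9 of the 98 were higher in low nitrogen, against 7.49% of all genes tested, and 3 were lower, against 7.11%. The first number was little above the share of all genes and the second below it. The 9 were mRNA_271, mRNA_409, mRNA_2280, mRNA_4364, mRNA_5107, mRNA_6476, mRNA_6548, mRNA_7345 and mRNA_7907. The 3 that were lower were mRNA_1060, mRNA_4926 and mRNA_7291, with log2 fold changes between -0.22 and -1.26. With acetate 24 were higher at all 3 times, against 16.2%, and 3 lower, against 15.9%. Without acetate 10 were higher at all 3, against 15.6%, and 15 lower, against 16.9%. The 6 comparisons share no library, but the times of a medium may share flasks. Of the 12 genes, those without a place under the naming rule were named after their values were seen.

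Nitrogen made the widest difference in mRNA_409 (protein 8777, minus strand of scaffold 1, 950698 to 960325, 15 exons, coding length 8787 bp). With acetate at 48 h it had 959, 973 and 1021 CPM in low nitrogen, against 88.4, 83.6 and 267 CPM in high nitrogen. At 64 h with acetate the values were 1707, 1471 and 1403 CPM against 179, 226 and 209 CPM. Without acetate at 88 h they were 756, 749 and 600 CPM against 86.7, 38.1 and 81.6 CPM. Low nitrogen was above high nitrogen by a wide margin in every library, and the libraries at 267 and 38.1 CPM are among those that stood apart. The log2 fold changes at 48, 64 and 88 h were 2.75, 2.90 and 2.11 with acetate and 2.35, 2.48 and 3.35 without (adjusted p between 2.05e-10 and 5.55e-07, edgeR). Without the libraries that stood apart that at 48 h with acetate was 3.52, and those at 64 and 88 h without acetate were 2.21 and 3.06.

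The nitrogen difference of mRNA_7345 (protein 15713, minus strand of scaffold 8, 49119 to 56418, 13 exons) was of like size. Without acetate at 48 h it had 659, 683 and 760 CPM in low nitrogen, against 96.5, 77.4 and 57.5 CPM in high nitrogen. At 64 h with acetate it had 1026, 899 and 852 CPM against 129, 132 and 139 CPM. Low and high nitrogen libraries overlapped at no time. The log2 fold changes at 48, 64 and 88 h were 2.77, 2.80 and 2.18 with acetate and 3.18, 2.57 and 1.64 without (adjusted p between 2.39e-12 and 1.28e-07, edgeR).

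The most abundant giant gene, mRNA_5107 (protein 13475, scaffold 3, 1772311 to 1779712, plus strand, 16 exons), was higher in low nitrogen throughout and climbed with time there. Without acetate in low nitrogen its mean was 1374 ± 30.3 CPM at 48 h, 1558 ± 47.8 CPM at 64 h and 2897 ± 70.6 CPM at 88 h. Without acetate in high nitrogen it was 1151 ± 99.6, 861 ± 49.0 and 728 ± 61.2 CPM at the same times. At 88 h without acetate low nitrogen stood at 2901, 2824 and 2965 CPM, against 798, 699 and 687 CPM in high nitrogen, a log2 fold change of 1.99 with an SE of 0.10 (adjusted p = 7.57e-17, edgeR). At 48 h the difference was 0.26 (adjusted p = 0.0240, edgeR), and it did not pass without replicate 2 or replicate 3 of high nitrogen without acetate at 48 h (0.23 and 0.21). It was lower with acetate at 48 h in both media, at 806 ± 47.4 CPM with acetate against 1374 ± 30.3 CPM without in low nitrogen and 478 ± 46.3 against 1151 ± 99.6 CPM in high nitrogen (log2 fold changes -0.77 and -1.27, adjusted p = 1.40e-07 and 2.05e-12, edgeR).

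**Figure D4:**
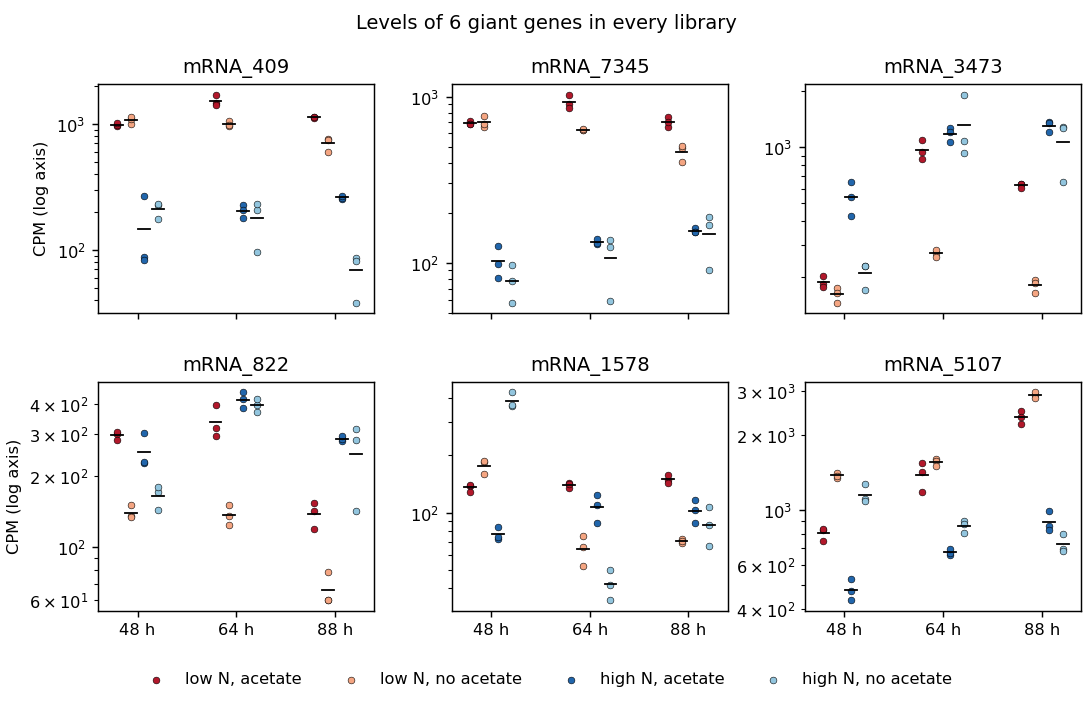
CPM (log axis) of 6 giant genes in each of the 36 libraries (points) at 48, 64 and 88 h, coloured by medium, with bars at the group means. In mRNA_409 and mRNA_7345 all low nitrogen libraries lie above all high nitrogen libraries, in mRNA_3473 and mRNA_822 low nitrogen without acetate lies lowest at 64 and 88 h, and mRNA_5107 climbs to a mean of 2897 CPM in low nitrogen without acetate at 88 h.

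Among the giant genes lower in low nitrogen, the largest differences were without acetate. For mRNA_3473 at 88 h the values were 193, 187 and 166 CPM in low nitrogen, against 1284, 649 and 1272 CPM in high nitrogen, a log2 fold change of -2.56 with an SE of 0.22 (adjusted p = 8.74e-12, edgeR). The value of 649 CPM is that of the library that stood apart, and it too was well above all low nitrogen libraries. Without the libraries that stood apart the log2 fold change was -2.81. With acetate at 88 h the difference was smaller, at 624 ± 19.7 CPM against 1306 ± 82.5 CPM (log2 fold change -1.06, adjusted p = 3.37e-05, edgeR). Other falls at 88 h without acetate were those of mRNA_1843, at 11.7 ± 1.67 CPM in low against 56.3 ± 14.6 CPM in high nitrogen (log2 fold change -2.24, adjusted p = 6.10e-11, edgeR), of mRNA_5020, at 16.8 ± 2.35 against 77.4 ± 3.86 CPM (log2 fold change -2.19, adjusted p = 4.80e-16, edgeR), of mRNA_822 (log2 fold change -1.90, adjusted p = 1.24e-10, edgeR) and of mRNA_641 (log2 fold change -1.72, adjusted p = 1.01e-10, edgeR). In no pair of these groups did the libraries overlap.

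With acetate the lowest values for nitrogen were, at 48 h, those of mRNA_3473 at -1.51 and mRNA_1060 at -1.04 on the log2 scale, at 64 h those of mRNA_3350 at -0.97 and mRNA_2460 at -0.91, and at 88 h those of mRNA_641 at -1.29 and mRNA_5020 at -1.24 (adjusted p between 6.03e-11 and 0.000104, edgeR). Of these mRNA_1060 stood, at 64 h with acetate, at 135 ± 6.99 CPM in low nitrogen, against 244 ± 5.34 CPM in high nitrogen, and its nitrogen difference passed the test in all 6 comparisons.

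Over time the giant genes went different ways in the 4 media. With 88 h set against 48 h, low nitrogen with acetate had 40 higher, against 38.9% of all genes tested, and 25 lower, against 35.5%, with a median log2 fold change of 0.09 against 0.04. Low nitrogen without acetate had 20 higher, against 36.2%, and 54 lower, against 37.4%, with a median of -0.37 against 0.00. High nitrogen with acetate had 69 higher, against 33.3%, and 6 lower, against 33.9%, with a median of 0.52 against -0.01. High nitrogen without acetate had 19 higher, against 32.8%, and 33 lower, against 32.6%, with a median of -0.06 against 0.00. In the same order of media, the 16 genes as long with 20 exons or more had medians of 0.04, -0.42, 0.05 and -0.29. Genes from 2000 bp to under 5000 bp had -0.04, -0.19, 0.08 and -0.19. The fall in low nitrogen without acetate was thus shared by other long genes.

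The counts depended on the scaling. Library totals alone gave 14 higher and 68 lower in low nitrogen without acetate and 61 and 9 in high nitrogen with acetate, but turned the balance to 23 and 45 in low nitrogen with acetate and to 34 and 20 in high nitrogen without acetate. Both turns came with a shift of all genes, by -0.30 and 0.19. The giant genes' median minus that of all genes was 0.05 and -0.07 in these 2 media under either scaling. In high nitrogen without acetate the number higher was 33, with 24 lower, without the libraries that stood apart, 32 without replicate 2 at 88 h alone and 8 without replicate 1 at 88 h. The median turned to 0.09 both without the libraries that stood apart and without replicate 2 at 88 h alone. In high nitrogen with acetate the counts without the libraries that stood apart were 73 and 5.

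The group means of the 98 giant genes did not change evenly between the times. Relative to each gene's mean over all libraries, the median giant gene in low nitrogen with acetate stood at -0.01 ± 0.05 at 48 h, 0.54 ± 0.09 at 64 h and 0.06 ± 0.06 at 88 h (log2 scale, mean ± SD of 3 libraries). In low nitrogen without acetate it stood at -0.02 ± 0.07, -0.09 ± 0.09 and -0.31 ± 0.06, in high nitrogen with acetate at -0.40 ± 0.06, 0.24 ± 0.04 and 0.06 ± 0.02, and in high nitrogen without acetate at -0.18 ± 0.12, 0.30 ± 0.07 and -0.24 ± 0.31. With TMM scaling 3 of the 4 media thus peaked at 64 h, and low nitrogen without acetate did not. Other long genes also stood highest at 64 h in these 3 media. The 16 genes as long with 20 exons or more then had 0.44 in low nitrogen with acetate. In high nitrogen they had 0.24 with and 0.12 without acetate. Genes from 2000 bp to under 5000 bp had 0.11, 0.08 and 0.17 in the same order. In low nitrogen with acetate the TMM factors were 1.11 at 48 h and 0.719 to 0.786 at 64 h. The giant genes' share of counts there, which uses no such factor, was 2.00% at 48 h and 2.07% at 64 h. With library totals alone 10 giant genes had their highest of the 12 group means in this medium at 48 h and 9 at 64 h. Whether 64 h stood out from 48 h in this medium, and by how much, thus depended on the scaling. In the low nitrogen libraries with acetate at 64 h 90, 91 and 89 of the 98 were above their own mean.

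**Figure D5:**
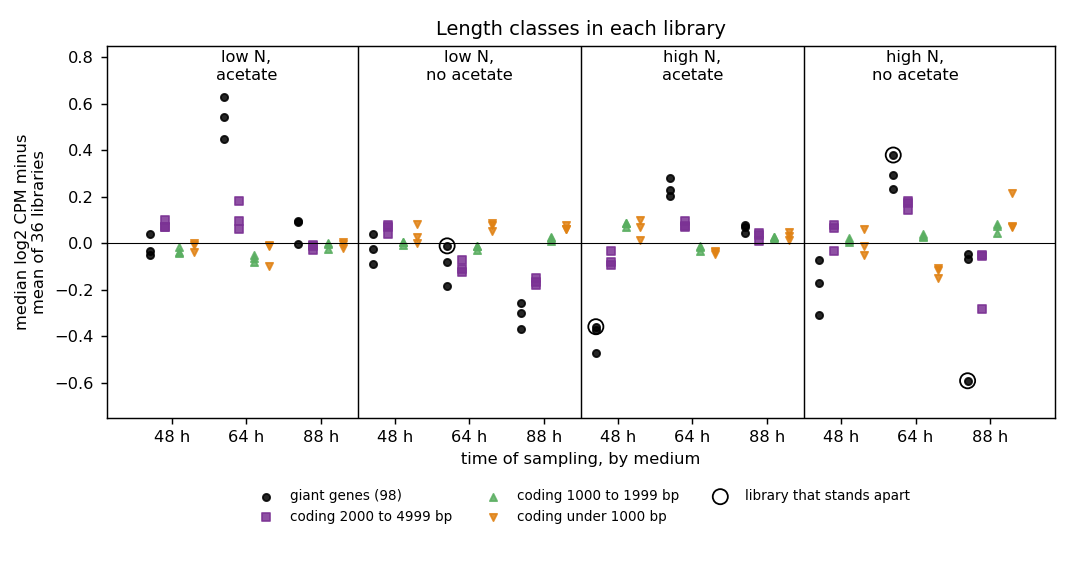
Median log2 CPM, relative to each gene's mean over 36 libraries, of the 98 giant genes and of 3 shorter classes of coding length in every library (points), by medium and time. The giant genes lie at 0.45 to 0.63 in low nitrogen with acetate at 64 h, the circled libraries stand apart from their replicates, and the circled library of high nitrogen without acetate at 88 h lies at -0.59.

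Farthest from its replicates in the median giant gene was replicate 2 of high nitrogen without acetate at 88 h. In it 7 giant genes were above their own mean, against 45 and 39 in its replicates, and the giant genes took 1.65% of the counts, against 2.19% and 2.14%. At 64 h in the same medium replicate 2 held 2.83% of its counts in giant genes, against 2.24% and 2.22%. As a share of all counts the giant genes took 2.00% ± 0.0622, 2.07% ± 0.0365 and 1.94% ± 0.0160 in low nitrogen with acetate at 48, 64 and 88 h (SD, n = 3). Low nitrogen without acetate had 1.95% ± 0.0844, 1.63% ± 0.0683 and 1.72% ± 0.0204. High nitrogen with acetate had 1.44% ± 0.0842, 1.95% ± 0.0669 and 1.77% ± 0.00153, and high nitrogen without acetate 1.83% ± 0.102, 2.43% ± 0.351 and 1.99% ± 0.300. On this scale, which uses no TMM factor, low nitrogen with acetate at 64 h was above low nitrogen without acetate by more than the spread of either group, while high nitrogen without acetate at 64 h was highest, also in the 2 libraries that did not stand apart.

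Single genes changed strongly with time. The largest rise was that of mRNA_3473 in high nitrogen without acetate, with 1284, 649 and 1272 CPM at 88 h against 229, 230 and 170 CPM at 48 h (log2 fold change 2.35 with SE 0.22 and adjusted p = 1.69e-10, edgeR). The library that stood apart gave the 649 CPM, and the times did not overlap. Without the libraries that stood apart the log2 fold change was 2.61. The largest fall was that of mRNA_2460 in high nitrogen without acetate, at 18.7 ± 3.97 CPM at 88 h against 101 ± 12.3 CPM at 48 h (log2 fold change -2.43 with SE 0.16 and adjusted p = 1.50e-13, edgeR). The next was that of mRNA_641 in low nitrogen without acetate, with 14.5, 26.4 and 16.6 CPM at 88 h against 90.8, 92.5 and 101 CPM at 48 h (log2 fold change -2.28 with SE 0.17 and adjusted p = 4.92e-13, edgeR). The times did not overlap in either gene. In high nitrogen with acetate mRNA_641 was higher at 88 h, at 120 ± 2.09 against 65.2 ± 5.92 CPM (log2 fold change 0.88, adjusted p = 1.41e-05, edgeR).

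In low nitrogen without acetate the largest rises were those of mRNA_8112 and of the longest gene. The level of mRNA_8112 was 154 ± 17.6 CPM at 88 h against 39.5 ± 4.44 CPM at 48 h (log2 fold change 1.96 with SE 0.13 and adjusted p = 1.13e-13, edgeR). For mRNA_6607 it was 236, 271 and 279 CPM at 48 h, 457, 497 and 512 CPM at 64 h and 945, 914 and 1022 CPM at 88 h, and 88 h stood above 48 h by a log2 fold change of 1.87 with an SE of 0.12 (adjusted p = 5.19e-14, edgeR). The 3 times did not overlap. In high nitrogen without acetate mRNA_6607 had 310, 279 and 273 CPM at 88 h against 273, 243 and 303 CPM at 48 h, a difference that did not pass the test (log2 fold change 0.07, adjusted p = 0.601, edgeR). In high nitrogen it was lower with acetate at all 3 times, with log2 fold changes of -1.23, -0.48 and -0.33 (adjusted p = 3.21e-10, 0.000861 and 0.0144, edgeR). The value at 64 h was -0.23 without replicate 2 of high nitrogen without acetate and still passed, and that at 88 h was -0.27 and did not pass without replicate 1. In low nitrogen it was higher with acetate at 64 h by 0.33 (adjusted p = 0.0260, edgeR), which did not pass without any 1 of 3 libraries, replicate 1 without acetate (0.28) and replicates 2 and 3 with acetate (0.33 and 0.28). At 88 h it was lower with acetate (log2 fold change -0.76, adjusted p = 4.55e-06, edgeR).

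With acetate the largest rises over time were those of mRNA_3473 and mRNA_5707 in low nitrogen (log2 fold changes 1.73 and 1.64, adjusted p = 2.09e-08 and 4.91e-13, edgeR) and of mRNA_3075 and mRNA_2405 in high nitrogen (1.57 and 1.40, adjusted p = 6.63e-13 and 1.94e-10, edgeR). For mRNA_3075 that was 260 ± 9.02 CPM at 88 h against 87.7 ± 10.4 CPM at 48 h. The falls in high nitrogen with acetate were those of mRNA_1553 and mRNA_2466 (-0.86 and -0.79, adjusted p = 5.38e-05 and 4.66e-06, edgeR), and in low nitrogen with acetate those of mRNA_1843 and mRNA_641 (-1.75 and -1.34, adjusted p = 9.76e-09 and 1.22e-08, edgeR). The rise of mRNA_409 in high nitrogen with acetate was 0.84 (adjusted p = 0.0164, edgeR). It was larger, 1.60, without replicate 3 at 48 h, the library that stood apart. With replicate 3 kept, it did not pass without replicate 1 or 2 at 48 h (0.58 and 0.56).

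In all 4 media 6 giant genes were higher at 88 h, against 5.41% of all genes tested, and 2 were lower, against 5.33%. The 6 were mRNA_3227, mRNA_5230, mRNA_5707, mRNA_6313, mRNA_8112 and mRNA_8172, and the 2 were mRNA_7781 and mRNA_8422. Among the genes higher at 88 h, mRNA_5230 had log2 fold changes of 0.41 with and 1.27 without acetate in low nitrogen and of 1.13 with and 0.92 without acetate in high nitrogen. Among those lower, mRNA_8422 had -0.45 with and -2.04 without acetate in low nitrogen and -0.74 with and -2.04 without acetate in high nitrogen.

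Length set the giant genes apart somewhat more in the comparisons of time than in those of acetate. In low nitrogen with acetate the 44 giant genes of 6000 bp or more had a median log2 fold change of 0.19 for 88 h over 48 h, with 20 higher and 6 lower, and the 54 shorter ones -0.03, with 20 and 19. Pearson's r between the log2 fold change and log2 coding length over the 98 giant genes was 0.36 there, 0.31 in high nitrogen with acetate, 0.24 in low and 0.20 in high nitrogen without acetate. These are correlations across genes measured in the same libraries and are given as a description.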

How the data were processed

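The data are RNA-seq counts from 36 libraries in 12 groups of 3. Per the labels' protocols, stranded mRNA libraries were sequenced from both ends. The submitters' processing notes name STAR 2.7.10a, featureCounts, Subread 2.0.4, Trimmomatic 0.39, FastQC 0.11.9 and MultiQC 1.9, with no roles or settings; strand use and reads with several matches are not described. The deposited values are whole-number counts per mRNA, although the sample description mentions a scaled unit. The authors' gene catalogue gave the exon and coding coordinates of the version 4 assembly.

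Counts were fitted with edgeR 4.0.16 (R 4.3.3) on all 8314 genes that passed its filter on low counts, with TMM scaling, 1 mean per group, the quasi-likelihood F-test and Benjamini-Hochberg adjustment per comparison. The fit was tested on simulated data. Log2 CPM used a prior count of 2. Comparisons were 6 of acetate, 6 of nitrogen, 4 of time and 3 interactions. Alternatives were DESeq2 1.42.0, RLE factors, library totals alone, no filter, at least 10 CPM in 3 libraries, a replicate block, a fit of just the 2 or 4 groups at issue, and leaving out each library, with TMM's reference library kept. By its own choice edgeR would have kept that reference in 4 of these 36 runs and taken another in 32. Leaving out the 4 libraries that stand apart, another TMM reference library and group means scaled by library totals alone were added after seeing the data. A library stood apart where both its chi-squares per degree of freedom were over 3 times that of the third pair. Genes were named by rule for their level (4 highest RPKM), coding length or range over the groups, as the 2 highest and 2 lowest called log2 fold changes per comparison (at least 10 CPM in the higher group, groups not overlapping) and as the highest and lowest called interaction. Genes that define the length limit, counts of few genes and some other extremes were named besides these, after their values were seen. The members and lists were chosen with earlier results of these data known. Replicate numbers were checked as pairs: within-number correlations of deviations lay between -0.366 and 0.226, so the numbers were not used to pair samples.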

Additional observations from a re-analysis of the deposited data

Results flagged for a closer look

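The effect of acetate differed between low and high nitrogen, by the interaction test of edgeR with Benjamini-Hochberg adjustment over all genes tested, in 41 giant genes at 48 h. Of these 36 had a higher and 5 a lower effect in low nitrogen, against 28.3% and 28.4% of all genes tested. At 64 h the number was 76, split into 74 and 2, against 31.9% and 24.1%. For 88 h it was 50, split into 29 and 21, against 32.8% and 30.2%. As shares of the 98 giant genes the last 2 were 29.6% and 21.4%, both below those of all genes. The genes below had the highest and the lowest called difference at each time, where the effect in low nitrogen is taken minus that in high nitrogen.

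At 48 h mRNA_1578 had a difference of 1.95 on the log2 scale (adjusted p = 3.67e-09, edgeR), with log2 fold changes for acetate of -0.38 in low and -2.33 in high nitrogen. At the same time mRNA_3473 had -1.14 (adjusted p = 0.00148, edgeR), with 0.22 in low and 1.36 in high nitrogen. At 64 h the difference of mRNA_3473 was 2.00 (adjusted p = 2.31e-06, edgeR), with 1.85 in low and -0.15 in high nitrogen, and at 88 h it was 1.49 (adjusted p = 6.75e-05, edgeR), with 1.78 and 0.29. The sign of its difference thus turned between 48 h and the later times. At 64 h mRNA_2460 had -0.84 (adjusted p = 0.00181, edgeR), with rises of 1.15 in low and 1.99 in high nitrogen. At 88 h mRNA_271 had -1.41 (adjusted p = 0.000155, edgeR), with rises of 0.70 in low and 2.10 in high nitrogen. Without the 4 libraries that stood apart, all of these differences kept their sign and passed the test. They were then 2.02 for mRNA_1578 and -1.29 for mRNA_3473 at 48 h, 1.62 for mRNA_3473 and -0.88 for mRNA_2460 at 64 h, and 1.75 for mRNA_3473 and -1.16 for mRNA_271 at 88 h (adjusted p between 8.42e-11 and 0.000297, edgeR).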

How the results depend on the processing

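Of the counts of giant genes called, 159 of 164 under settings other than leaving out a library lay within 1.5 times of the reported count. The 5 others were 56 for acetate in low nitrogen at 48 h, 31 for acetate in high nitrogen at 88 h and 27 for time in high nitrogen without acetate, all with only the groups compared fitted (30, 55 and 52 in the report), 66 for acetate in high nitrogen at 64 h with library totals alone (34), and 63 for the interaction at 48 h without the 4 libraries that stood apart (41). With only the groups compared, the split was 31 higher and 25 lower, 25 and 6, and 6 and 21 in the first 3. With library totals alone the giant genes with their highest group mean in low nitrogen with acetate at 64 h were 9 (50 in the report), and 5 values of named genes turned sign. These were mRNA_5107 for acetate in high nitrogen at 88 h (-0.17), mRNA_6209 for nitrogen without acetate at 88 h (-0.16) and time in low nitrogen with acetate (-0.022), mRNA_5230 for nitrogen without acetate at 88 h (-0.16) and mRNA_6607 for nitrogen without acetate at 64 h (-0.077). That scaling moves all genes of a comparison alike: the median of all genes shifted by -0.54 to -0.30 in these comparisons, and the 5 values shifted by -0.53 to -0.30. The cause of the other 5 changes was not tested. Of the 1099 values of named genes under these settings, 1083 kept direction and call and 11 lost the call.

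Leaving out 1 library, with the TMM reference kept, gave 22 to 24, 84 to 90 and 70 to 77 called for acetate in low nitrogen at 48, 64 and 88 h, and 53 to 65, 30 to 34 and 46 to 63 in high nitrogen. For nitrogen it gave 64 to 70, 60 to 64 and 55 to 61 with acetate and 53 to 57, 70 to 73 and 71 to 76 without. For time it gave 59 to 61 and 68 to 73 in low nitrogen with and without acetate, and 69 to 74 and 46 to 55 in high nitrogen. The interactions gave 37 to 47, 69 to 77 and 44 to 59. Of 804 such values of named genes 14 lost the call. With the replicate block the called counts were 30, 88, 80, 61, 34 and 54 for acetate, 71, 65, 63, 57, 73 and 75 for nitrogen with and then without acetate, 66, 74, 75 and 51 for time and 41, 75 and 51 for the interactions. In 0 of 16 comparisons did every same-numbered pair correlate above 0.1, and 29 of 96 library and comparison combinations correlated best with their own number.

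Depth limited few values, since the lowest count of a giant gene was 66. With 3 libraries a group, small changes could be missed, and a p above the threshold does not show that levels were equal.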
